A study of Mus musculus with 6 samples.

Results

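Of the 23420 gene symbols in a count table from mouse pancreatic islets, 32 belong to cholesterol synthesis, its control by the transcription factor SREBP2, and the movement, storage and efflux of sterols. They were taken from a list of symbols, with no threshold on their values, but the list was drawn up with earlier results of these data known. All 32 were in the table and all passed the filter on low counts. They comprise 10 genes from acetyl-CoA to lanosterol, 8 from lanosterol to cholesterol, 4 that control SREBP2, 4 of intracellular traffic and storage, and 6 of the liver X receptor (LXR) and efflux group. Polyadenylated RNA came from islets of C57BL/6J mice, in 3 libraries labelled OIO and 3 labelled control. OIO, overfeeding-induced obesity, was brought about by infusing the liquid diet Ensure into the stomach over 9 days, at an intake of 13 to 18.5 kcal each day. Saline was infused in the controls, also over 9 days. No genetic alteration is labelled in either group, and the labels give no age or sex and do not say whether a library holds 1 mouse or several. P-values therefore measure how far these libraries scatter, and that scatter may be technical.

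Cells make cholesterol from acetyl-CoA through mevalonate, squalene and lanosterol. When sterols in the endoplasmic reticulum (ER) run low, the escort protein SCAP carries SREBP2 to the Golgi, where it is cleaved and released to switch on the genes of the pathway. When sterols are plentiful, the INSIG proteins hold SCAP in the ER, and oxysterols activate the LXR receptors, which raise genes of cholesterol export. In beta cells, cholesterol is a component of the insulin granule membrane, and excess or lack of it is known to disturb insulin secretion.

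The promoters of the 5 genes that differed between the groups are shown beside those of Abca1 and Mylip, a gene without and a gene with CCAAT boxes in the LXR and efflux group. Each line gives the 250 bases before the RefSeq transcript start on GRCm38.p6, 5′ to 3′ on the strand of the gene. Capitals mark CCAAT boxes, the pentamer CCAAT read on either strand and known to bind NF-Y, a partner of SREBP2 at sterol genes, and, in Hmgcs1, the letters TCACNCCAC of a sterol regulatory element. No match of one motif overlapped a match of the other in these stretches.
Hmgcs1: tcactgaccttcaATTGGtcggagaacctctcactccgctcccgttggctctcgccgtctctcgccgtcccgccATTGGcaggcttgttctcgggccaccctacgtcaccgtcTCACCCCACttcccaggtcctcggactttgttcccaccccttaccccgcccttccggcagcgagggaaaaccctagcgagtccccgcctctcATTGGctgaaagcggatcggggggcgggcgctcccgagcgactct
Sc4mol: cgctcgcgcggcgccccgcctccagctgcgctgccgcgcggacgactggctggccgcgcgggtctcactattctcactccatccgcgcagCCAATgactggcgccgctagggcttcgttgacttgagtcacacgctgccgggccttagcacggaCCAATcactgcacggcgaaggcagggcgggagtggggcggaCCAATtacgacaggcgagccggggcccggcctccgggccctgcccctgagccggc
Hsd17b7: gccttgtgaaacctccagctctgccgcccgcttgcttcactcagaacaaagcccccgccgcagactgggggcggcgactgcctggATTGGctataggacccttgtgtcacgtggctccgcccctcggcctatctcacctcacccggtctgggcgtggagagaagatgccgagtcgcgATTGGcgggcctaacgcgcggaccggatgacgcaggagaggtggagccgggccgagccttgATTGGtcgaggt
Cyp51: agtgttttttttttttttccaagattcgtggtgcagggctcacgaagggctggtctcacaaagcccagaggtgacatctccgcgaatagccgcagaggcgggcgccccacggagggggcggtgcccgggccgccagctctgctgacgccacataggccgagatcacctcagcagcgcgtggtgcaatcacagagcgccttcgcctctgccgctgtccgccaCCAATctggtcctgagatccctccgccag
Ebp: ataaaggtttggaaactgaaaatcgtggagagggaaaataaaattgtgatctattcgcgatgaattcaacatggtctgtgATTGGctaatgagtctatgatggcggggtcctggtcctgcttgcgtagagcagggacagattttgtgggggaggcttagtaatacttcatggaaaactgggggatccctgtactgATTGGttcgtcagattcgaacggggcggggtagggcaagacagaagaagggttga
Abca1: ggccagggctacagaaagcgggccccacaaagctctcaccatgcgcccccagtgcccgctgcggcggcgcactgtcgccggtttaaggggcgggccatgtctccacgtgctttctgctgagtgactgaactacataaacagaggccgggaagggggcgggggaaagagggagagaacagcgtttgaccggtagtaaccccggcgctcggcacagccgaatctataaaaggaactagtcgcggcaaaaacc
Mylip: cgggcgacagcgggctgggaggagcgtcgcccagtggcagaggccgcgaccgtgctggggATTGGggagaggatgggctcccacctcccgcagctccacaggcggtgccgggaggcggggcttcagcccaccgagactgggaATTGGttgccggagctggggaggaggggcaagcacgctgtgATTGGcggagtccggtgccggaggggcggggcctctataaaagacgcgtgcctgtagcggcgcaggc

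The stretches of Hmgcs1, chr13:119690101-119690350, and of Mylip, chr13:45389492-45389741, are on the plus strand, and those of Sc4mol, chr8:64733579-64733828, of Hsd17b7, chr1:169969206-169969455, of Cyp51, chr5:4104698-4104947, of Ebp, chrX:8193513-8193762 and of Abca1, chr4:53159896-53160145, on the minus strand. They hold 3 CCAAT boxes each in Hmgcs1, Sc4mol, Hsd17b7 and Mylip, 2 in Ebp, 1 in Cyp51 and 0 in Abca1. The GENCODE genes of Sc4mol, Hsd17b7 and Cyp51 reach into these stretches, to 64733792, 169969241 and 4104746. All marked boxes of Sc4mol and Cyp51 and the last of Hsd17b7 thus lie within the annotated gene. Bases after the RefSeq start of Hmgcs1 were not found in a GENCODE transcript of that gene. RefSeq promoters were matched for 26 of the 32 members. In windows that also take in the 50 bases after the start, 14 of 15 synthesis genes held a CCAAT box at some listed start, as did 1 of 5 genes of the LXR and efflux group, Mylip, and 41.1% of 27025 genes in the promoter table. So did 3 of 4 genes that control SREBP2 and 2 of 2 genes of traffic and storage with an entry, or 20 of the 26 members in all. The sterol regulatory element as spelled above was found in 1 of 15 synthesis genes, Hmgcs1, and in 1.44% of all genes, and the LXR element DR4, a direct repeat with a spacer of 4 bases searched on both strands, in 0 of 26 members and in 0.0148% of all genes. A match is a description of these letters in these windows and not a site in use.

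**Figure D1:**
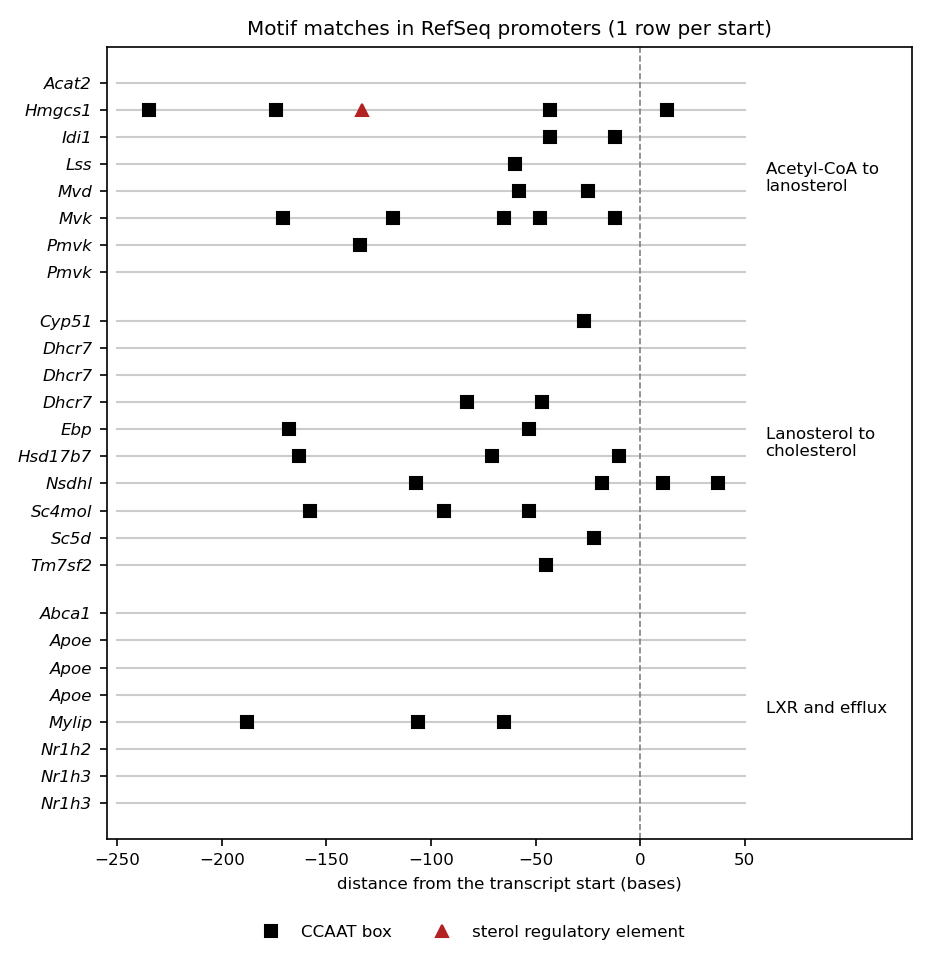
Positions of CCAAT boxes (squares) and of the sterol regulatory element (triangle) by distance in bases from the transcript start, with 1 row for each RefSeq start of the synthesis genes and of the LXR and efflux genes that have an entry. Squares lie in 14 of 15 synthesis genes and, among the LXR and efflux genes, in the row of Mylip.

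In islets of overfed mice, transcripts of 4 enzymes of cholesterol synthesis passed the test as lower and those of 1 as higher. That is 12.5% and 3.12% of the 32 members, against 2.84% and 4.54% of all genes. Most of the pathway and all 6 LXR and efflux genes did not pass. Hmgcs1, the cytosolic HMG-CoA synthase that commits carbon to the mevalonate pathway, fell by 23.8%. Sc4mol, now named Msmo1, and Hsd17b7, which act together in removing the methyl groups at carbon 4 of the sterol ring, fell by 29.5% and 35.6%. Cyp51, the lanosterol demethylase, fell by 13.2%, and Ebp, the sterol isomerase further down the same branch, rose by 19.1%. Of these, only Hmgcs1 and Sc4mol passed in all 6 fits that left out 1 library. Hsd17b7 passed in 3 of those fits, and Cyp51 and Ebp in 0.

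The count of 4 lower members is 12.5% of the 32 tested, where 2.84% of all 14903 genes were lower at an adjusted p under 0.05 in edgeR's quasi-likelihood test. The 1 higher member is 3.12%, where 4.54% of all genes were higher, and in either direction 7.37% of all genes were called. DESeq2 called 3 members lower and 1 higher, where 3.5% and 6.16% of all genes were called, and limma voom 3 and 1, where 2.32% and 4.29% were. With library size alone as the scaling, 6 members were lower and 0 higher, where 7.47% and 3.34% of all genes were. Without OIO replicate 1, 2 or 3, edgeR called 2, 3 and 2 members lower, where 0.743%, 0.822% and 0.992% of all genes were, and 0 higher, where 2.66%, 2.23% and 2.35% were. Without control replicate 1, 2 or 3, it called 2, 3 and 3 members lower, where 1.7%, 1.73% and 2.02% of all genes were, and 1, 0 and 0 higher, where 3.7%, 2.92% and 3.4% were. The median log2 fold change was −0.06 over the members and −0.01 over all genes, and 19 members had a negative value. Every OIO library lay below every control library in 7 members, or 21.9%, against 15.1% of all genes, and above in 3 members, or 9.38%, against 14.1% of all genes. Libraries held between 20968058 counts (OIO replicate 1) and 48178375 counts (OIO replicate 2). The 7 beta cell markers summed to between 166000 and 239000 reads per 1e6 reads of the scaled library (CPM) in each library, none of them at 0, and the 6 acinar markers to 2620 to 6170 in OIO and 2240 to 7360 in control libraries. Control replicate 3 stood apart in its 6 stromal markers, with a sum of 611 CPM against 170 to 325 in the other libraries.

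**Figure D2:**
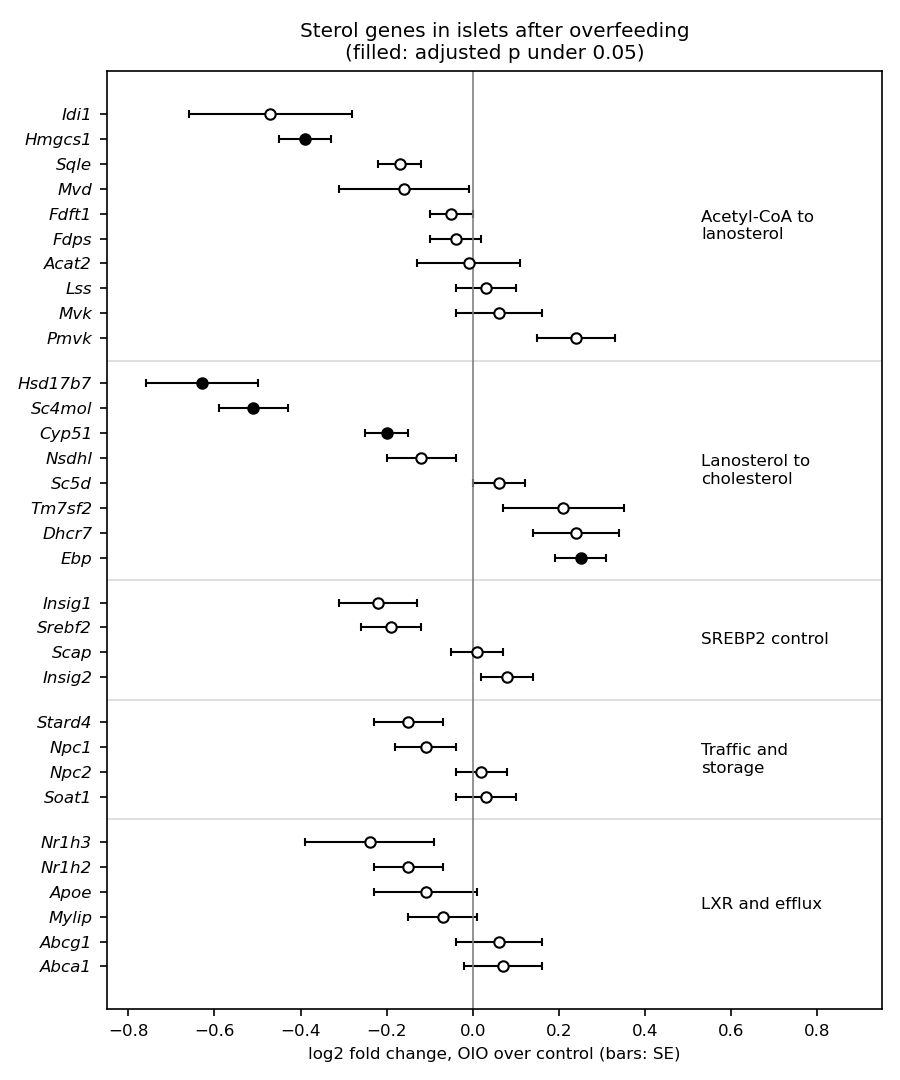
Log2 fold change of OIO over control for the 32 members by role, with bars of 1 SE from edgeR (3 libraries per group). Filled points are the 5 members past an adjusted p of 0.05, from Hsd17b7 at −0.63 to Ebp at 0.25.

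In the segment from acetyl-CoA to lanosterol, 1 of 10 genes fell, none rose and 9 did not pass. Of all genes, 2.84% were lower and 4.54% higher. Hmgcs1 stood at 67.9, 68.2 and 63.1 CPM in OIO replicates 1, 2 and 3 and at 82.6, 88.6 and 90.1 CPM in control replicates 1, 2 and 3. All OIO libraries were thus below all control libraries, with means of 66.4 ± 2.86 and 87.1 ± 3.96 CPM (SD, n = 3 each). The log2 fold change was −0.39 (SE 0.06, adjusted p = 0.0046 in edgeR), and it passed in each fit that left out 1 library, with adjusted p from 0.0056 to 0.026. Hmgcs1 lies on chromosome 13 from 119690379 to 119708260 in GRCm38 and is protein-coding, and an antisense gene, Gm48342, overlaps its exons.

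Sqle, the squalene epoxidase and a known control point of the pathway, had 139, 144 and 135 CPM in OIO and 163, 152 and 156 CPM in control libraries. Its groups did not overlap. The difference of −0.17 on the log2 scale (SE 0.05) missed the threshold in edgeR (adjusted p = 0.084). It passed with library size alone as the scaling (adjusted p = 0.024), where the median of all genes was −0.08. Idi1, the isopentenyl diphosphate isomerase, had 3.93, 3.13 and 4.51 CPM in OIO and 4.18, 5.86 and 5.85 CPM in control libraries, so that OIO replicate 3 lay above control replicate 1. The difference was −0.47 on the log2 scale (SE 0.19, adjusted p = 0.17 in edgeR), on 82 to 235 counts per library. Pmvk, the phosphomevalonate kinase, went the other way, with 19.6, 20.2 and 21.6 CPM in OIO and 16.4, 19.4 and 16.0 CPM in control libraries (log2 fold change 0.24, SE 0.09, adjusted p = 0.13 in edgeR). All 3 of its OIO libraries lay above the controls, by a small margin over control replicate 2.

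The other 6 genes of this segment had log2 fold changes between −0.16 and 0.06. They were Acat2, the cytosolic thiolase of the opening step, Mvk, the mevalonate kinase, Mvd, the mevalonate diphosphate decarboxylase, Fdps, the farnesyl diphosphate synthase, Fdft1, the squalene synthase, and Lss, the lanosterol synthase. Fdps averaged 38.3 ± 1.15 CPM in OIO and 39.4 ± 1.47 CPM in control islets (SD, n = 3 each), a difference within the spread of the libraries. Fdft1 averaged 45.5 ± 0.91 and 47.1 ± 0.70 CPM. Acat2 has a near-identical copy, Acat3, and exons of Fdft1, Tm7sf2 and Npc1 overlap those of the neighbours Ctsb, Vps51 and Rmc1. Exons of Fdps and Nr1h3 overlap those of Gm43738 and Gm13783 on the same strand. The counts of these members are thus less certain.

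In the segment from lanosterol to cholesterol, 3 of 8 genes fell, 1 rose and 4 did not pass. That is 37.5% lower and 12.5% higher, against 2.84% and 4.54% of all genes. Cyp51, among the 3, sat at the threshold (adjusted p = 0.047 in edgeR). Sc4mol, the methylsterol monooxygenase, had 52.2, 50.8 and 59.6 CPM in OIO and 72.0, 74.2 and 84.6 CPM in control libraries. The highest OIO library was below the lowest control library, and the log2 fold change was −0.51 (SE 0.08, adjusted p = 0.0067 in edgeR). It passed in each fit that left out 1 library (adjusted p 0.0088 to 0.038). Hsd17b7, the ketosteroid reductase of the same demethylation, had 4.60, 6.27 and 5.43 CPM in OIO and 8.72, 7.99 and 8.87 CPM in control libraries. The groups were again apart, with the largest fold difference among the members, −0.63 on the log2 scale (SE 0.13, adjusted p = 0.018). The OIO values rested on 96, 297 and 189 counts, and the call was lost without OIO replicate 1 (adjusted p = 0.059), OIO replicate 3 (0.066) and control replicate 1 (0.053 in edgeR). Nsdhl, the dehydrogenase that acts between them, had 13.7, 14.6 and 14.8 CPM in OIO and 15, 15.3 and 16.6 CPM in control libraries. It was lower in every OIO library by a small margin and did not pass (log2 fold change −0.12, SE 0.08, adjusted p = 0.42 in edgeR).

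Cyp51 had 49.5, 50.2 and 51.8 CPM in OIO and 56.2, 59.2 and 59.1 CPM in control libraries. The groups did not overlap, and the difference was −0.20 on the log2 scale (SE 0.05, adjusted p = 0.047 in edgeR). The call sat at the threshold and was lost in every fit without 1 library (adjusted p from 0.051 without control replicate 1 to 0.19 without OIO replicate 2) and in DESeq2 (adjusted p = 0.052) and limma voom (adjusted p = 0.054). It was also lost with RLE scaling (adjusted p = 0.058), upper quartile scaling (0.053) and no count filter (0.054 in edgeR), and held with library size alone (0.016). Exons of Cyp51 overlap exons of Akap9 on the opposite strand, and whether reads were assigned by strand is not stated.

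Ebp had 28.6, 28.2 and 26.9 CPM in OIO and 23.6, 23.2 and 23.4 CPM in control libraries. It was the member called higher, at 0.25 on the log2 scale (SE 0.06, adjusted p = 0.037 in edgeR), and the control libraries agreed closely (SD 0.21 CPM). It did not pass in any fit without 1 library (adjusted p 0.063 without OIO replicate 3 to 0.12 without OIO replicate 2) or with library size alone as the scaling (adjusted p = 0.10). Dhcr7, the reductase of the closing step, had 24.5, 23.8 and 24.6 CPM in OIO and 23.8, 17.7 and 20.3 CPM in control libraries. Control replicate 1 was close to the OIO libraries, and the log2 fold change was 0.24 (SE 0.10, adjusted p = 0.18, and 0.046 without control replicate 1, both in edgeR). Tm7sf2, a sterol reductase, had 8.09, 6.99 and 6.81 CPM in OIO and 5.72, 7.48 and 5.68 CPM in control libraries, which overlapped (log2 fold change 0.21, SE 0.14, adjusted p = 0.42 in edgeR). Sc5d, the sterol desaturase, stood at 0.06 on the same scale (SE 0.06, adjusted p = 0.61 in edgeR).

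**Figure D3:**
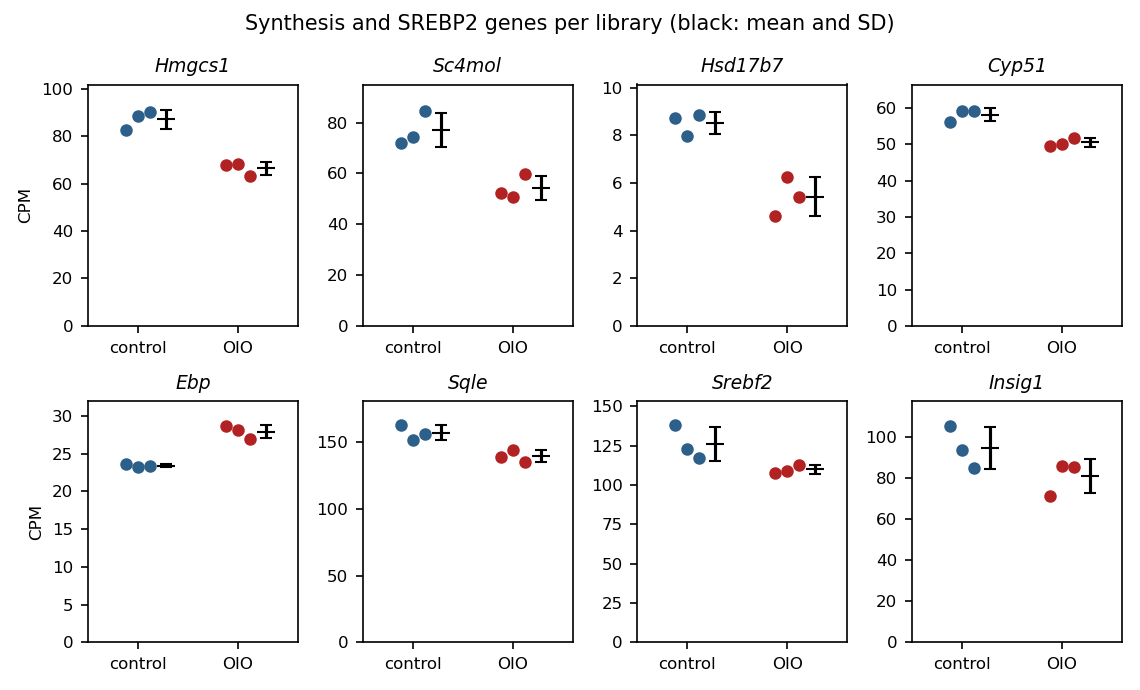
CPM in each library for the 5 called members and for Sqle, Srebf2 and Insig1, with axes from 0, control in blue, OIO in red and the mean with its SD in black (n = 3 per group). OIO points lie below all control points in Hmgcs1, Sc4mol, Hsd17b7, Cyp51, Sqle and Srebf2, above them in Ebp, and overlap with them in Insig1.

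In GRCm38, Sc4mol lies on chromosome 8 from 64718139 to 64733792, Hsd17b7 on chromosome 1 from 169949535 to 169969241, Cyp51 on chromosome 5 from 4081145 to 4104746 and Ebp on chromosome X from 8185329 to 8193512. Each is a protein-coding gene in the annotation, and its count covers the gene as a whole. The longest protein-coding transcripts are 3464 bases for Hmgcs1, 2044 for Sc4mol, 4612 for Hsd17b7, 3931 for Cyp51 and 1743 for Ebp. Measured against the median of the 500 tested genes nearest in length, a comparison added after the data were seen, their log2 fold changes were −0.38, −0.53, −0.60, −0.19 and 0.23.

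Of the 4 genes that control SREBP2, 0 passed in edgeR, DESeq2 or limma voom, where edgeR called 7.37% of all genes. In edgeR, 2 had an unadjusted p under 0.05, as had 3493 of all 14903 genes. Srebf2, which encodes SREBP2, had 108, 109 and 113 CPM in OIO and 138, 123 and 117 CPM in control libraries. Every OIO library was lower, control replicate 3 by little, and the log2 fold change was −0.19 (SE 0.07, adjusted p = 0.11 in edgeR, and 0.028 with library size alone as the scaling). Insig1, an ER anchor of SCAP that is itself an SREBP target, had 71.4, 85.9 and 85.4 CPM in OIO and 105, 93.6 and 84.7 CPM in control libraries. OIO replicates 2 and 3 lay above control replicate 3, and the log2 fold change was −0.22 (SE 0.09, adjusted p = 0.20 in edgeR). Insig2, the related anchor, had a log2 fold change of 0.08 (SE 0.06) and Scap, the escort, of 0.01 (SE 0.06). Scap averaged 77.5 ± 2.19 CPM in OIO and 76.7 ± 5.13 CPM in control islets.

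The 4 genes of traffic and storage had log2 fold changes between −0.15 and 0.03. Of them 0 passed in edgeR, DESeq2 or limma voom and 0 had an unadjusted p under 0.05. Over all 14903 genes, 7.37% were called in edgeR and 3493 had an unadjusted p under 0.05, so that 0 of 4 says little. Npc1 and Npc2, which export cholesterol from the lysosome, averaged 31.7 ± 1.05 against 34.3 ± 3.06 CPM and 191 ± 3.76 against 189 ± 14.9 CPM (OIO against control, SD, n = 3). Their groups overlapped. Stard4, a soluble sterol carrier, was at −0.15 (SE 0.08, adjusted p = 0.29 in edgeR) and Soat1, the ER enzyme that esterifies cholesterol for storage, at 0.03 (SE 0.07, adjusted p = 0.87 in edgeR).

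Of the 6 LXR and efflux genes, 0 passed in edgeR, DESeq2 or limma voom and 0 had an unadjusted p under 0.05. The groups overlapped in each of them. Over all 14903 genes, 7.37% were called in edgeR and 3493 had an unadjusted p under 0.05. OIO libraries lay fully below the controls in 15.1% of all genes and fully above in 14.1%. In so small a list, 0 is not far from these shares. Abca1, the transporter that loads cholesterol onto lipid-poor apolipoprotein, had 185, 190 and 224 CPM in OIO and 196, 204 and 171 CPM in control libraries. OIO replicate 3 was highest and control replicate 3 lowest (log2 fold change 0.07, SE 0.09, adjusted p = 0.69 in edgeR), and the value was −0.01 without OIO replicate 3 and 0.00 without control replicate 3. Abcg1, which passes cholesterol to lipoprotein particles, had 76.1, 75.2 and 68.0 CPM in OIO and 79.0, 72.8 and 59.3 CPM in control libraries. The difference of 0.06 on the log2 scale (SE 0.10, adjusted p = 0.80 in edgeR) turned to −0.05 without control replicate 3, the lowest of the libraries.

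Apoe, the lipid-carrying apolipoprotein, had 300, 229 and 244 CPM in OIO and 241, 298 and 294 CPM in control libraries. The highest library was in the OIO group and the next 2 in the control group (log2 fold change −0.11, SE 0.12, adjusted p = 0.64 in edgeR). Macrophages are a known source of Apoe, Abca1 and Abcg1. Of 12 macrophage markers 0 passed in edgeR, with 0 at an unadjusted p under 0.05 and 0 in DESeq2 or limma voom. Over all 14903 genes, 7.37% were called in edgeR and 3493 had an unadjusted p under 0.05. The markers summed to 461, 355 and 392 CPM in OIO and 331, 354 and 424 CPM in control libraries, so that OIO replicate 1 was highest in both the sum and Apoe, and none of the 12 was at 0 in all libraries. Their part in these values was not tested, and in such bulk samples fewer cells of a type cannot be told from less RNA per cell.

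Nr1h3, the gene of LXR alpha, had 5.84, 6.86 and 6.99 CPM in OIO and 8.25, 6.19 and 8.97 CPM in control libraries. Control replicate 2 fell among the OIO libraries (log2 fold change −0.24, SE 0.15, adjusted p = 0.37 in edgeR). Nr1h2, the gene of LXR beta, had 28.1, 27.2 and 30.9 CPM in OIO and 34.4, 31.5 and 30.0 CPM in control libraries, or −0.15 on the log2 scale (SE 0.08, adjusted p = 0.26 in edgeR). Mylip, an LXR-induced ubiquitin ligase that marks lipoprotein receptors for degradation, averaged 16.4 ± 0.90 CPM in OIO and 17.2 ± 1.25 CPM in control islets (SD, n = 3), within the spread of the libraries.

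**Figure D4:**
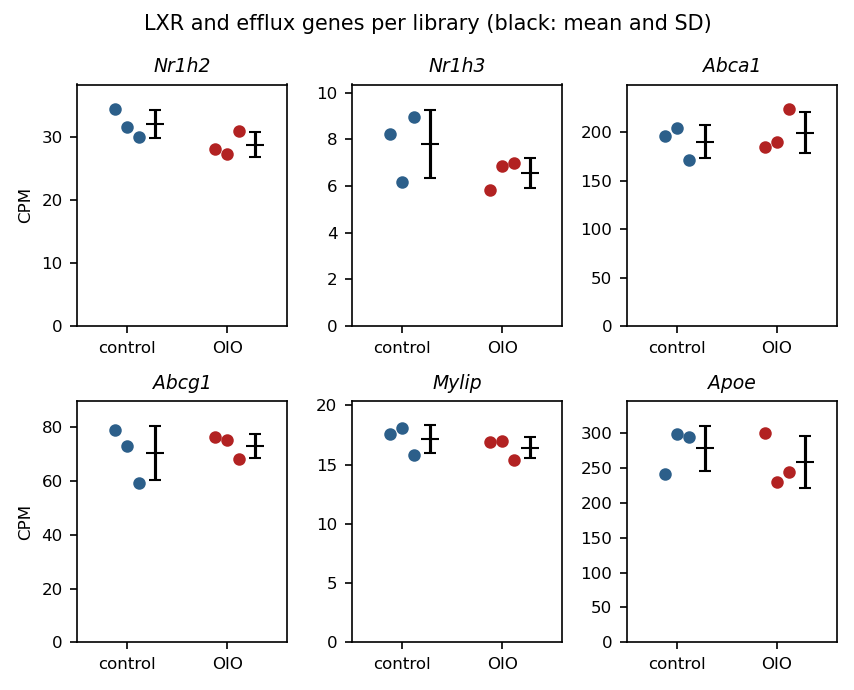
CPM in each library for the 6 LXR and efflux genes, with axes from 0, control in blue, OIO in red and the mean with its SD in black (n = 3 per group). The red and blue points overlap in each panel, including Apoe, where an OIO library at 300 CPM is the highest.

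The averages of the synthesis genes and of the LXR and efflux genes were both slightly lower in OIO libraries, and the gap between the averages overlapped between the groups. The mean over the 18 synthesis genes of log2 CPM minus the control mean was −0.10, −0.09 and −0.09 in OIO replicates 1, 2 and 3 and −0.04, 0.03 and 0.01 in control replicates 1, 2 and 3. Over the 6 LXR and efflux genes it was −0.07, −0.10 and −0.05 in OIO and 0.05, 0.00 and −0.05 in control libraries. All OIO libraries were below all control libraries in both averages, in the efflux average by no more than rounding between OIO replicate 3 and control replicate 3. The difference between both averages was −0.03, 0.01 and −0.03 in OIO and −0.09, 0.03 and 0.06 in control libraries, and these overlapped. Single synthesis genes ran from −0.63 to 0.25 and single LXR and efflux genes from −0.24 to 0.07 on the log2 fold change scale. Of the 18 synthesis genes, 11, or 61.1%, had a negative value, against 52.5% of all genes. As means, the group differences were −0.09 for synthesis, −0.07 for LXR and efflux and −0.02 for synthesis minus efflux. With the median over members in place of the mean, they were −0.03, −0.08 and 0.06, so that the last changed sign.

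**Figure D5:**
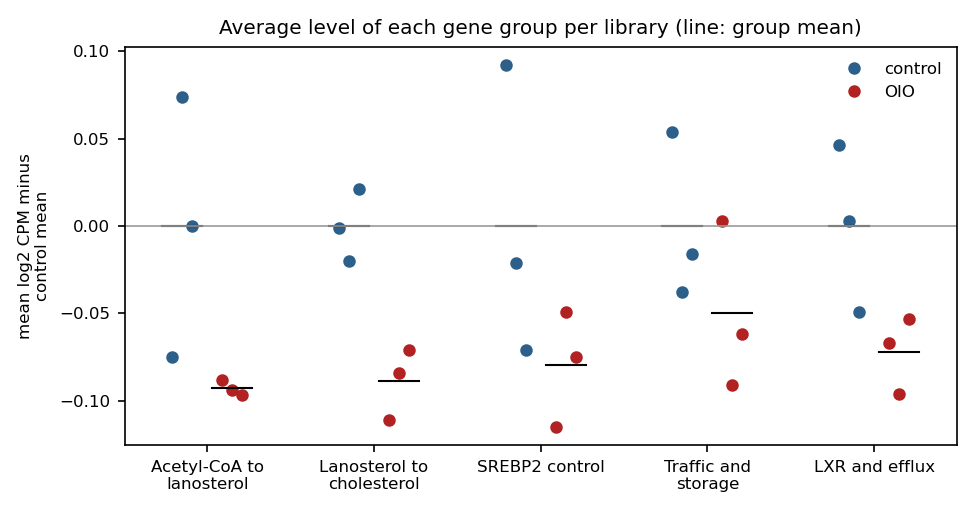
Mean over the genes of each role of log2 CPM minus the control mean, per library, with a line at the group mean (3 libraries per group). OIO points lie below the control points in the segments from acetyl-CoA to lanosterol and from lanosterol to cholesterol, overlap them for SREBP2 control and for traffic and storage, and lie just below them for LXR and efflux.

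Among 50 further genes of sterol metabolism, 48 were tested, 3 rose and 1 fell, which is 6.25% and 2.08% of those tested, near the 4.54% and 2.84% of all genes, and their median log2 fold change was −0.06. Acat1, the mitochondrial acetoacetyl-CoA thiolase and a relative of Acat2 in ketone body metabolism, had 135, 143 and 146 CPM in OIO and 104, 114 and 107 CPM in control libraries. It lay higher in every OIO library, by 0.39 on the log2 scale (SE 0.06, adjusted p = 0.0047 in edgeR), and passed in each fit without 1 library (adjusted p 0.0068 to 0.029). Lpcat3, a phospholipid acyltransferase and known LXR target, had 102, 98.6 and 110 CPM in OIO and 89.9, 83.5 and 79.8 CPM in control libraries (log2 fold change 0.30, SE 0.06, adjusted p = 0.022 in edgeR). Smpdl3a, a phosphodiesterase induced by LXR in human macrophages, had 55.0, 55.2 and 51.7 CPM in OIO and 44.7, 46.8 and 44.6 CPM in control libraries (log2 fold change 0.25, SE 0.06, adjusted p = 0.026 in edgeR). Both were thus higher in every OIO library, as were 14.1% of all genes. They come from a list of further LXR targets and efflux genes with 7 tested members and a median log2 fold change of −0.18. In that list 3 others, or 42.9%, lay below every control library, against 15.1% of all genes, and did not pass. These were Lpl, the lipoprotein lipase, at −0.25 (SE 0.07, adjusted p = 0.074 in edgeR), Abca5, a transporter, at −0.18 (SE 0.06, adjusted p = 0.098 in edgeR) and Pltp, the phospholipid transfer protein, at −0.34 (SE 0.14, adjusted p = 0.18 in edgeR). The call of Lpcat3 was lost without OIO replicate 1 (adjusted p = 0.052), OIO replicate 3 (0.072), control replicate 2 (0.068) and control replicate 3 (0.058 in edgeR). That of Smpdl3a was lost without OIO replicate 1 (adjusted p = 0.076), OIO replicate 2 (0.10), control replicate 1 (0.061) and control replicate 3 (0.061 in edgeR), and with library size alone (0.088). Exons of Lpcat3 and Pltp overlap those of Emg1 and Ctsa on the opposite strand, so that the counts of Lpcat3 and Pltp are less certain.

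Rnf145, an ER ubiquitin ligase that acts in sterol-dependent protein turnover and is a known LXR target, had 84.5, 88.9 and 81.1 CPM in OIO and 99.5, 97.5 and 98.5 CPM in control libraries. It was lower in every OIO library, at −0.21 on the log2 scale (SE 0.05, adjusted p = 0.038 in edgeR), and did not pass in any fit without 1 library (adjusted p 0.069 without control replicate 3 to 0.15 without OIO replicate 3). Dhdds, of dolichol synthesis, had 101, 93.7 and 99.8 CPM in OIO and 80, 80.9 and 90.5 CPM in control libraries (log2 fold change 0.23, SE 0.06, adjusted p = 0.056 in edgeR). Osbp, an oxysterol-binding lipid transfer protein, had 122, 126 and 130 CPM in OIO and 150, 137 and 144 CPM in control libraries (log2 fold change −0.19, SE 0.06, adjusted p = 0.065 in edgeR). The groups did not overlap in either gene, and neither passed. Of the remaining lists, 0 of 6 genes of uptake and the lysosome and 0 of 4 oxysterol enzymes passed in edgeR, DESeq2 or limma voom. In each list 0 had an unadjusted p under 0.05. Over all 14903 genes, 7.37% were called in edgeR and 3493 had an unadjusted p under 0.05, so that 0 in such short lists says little.

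In the authors' deposited table, 3 members were lower and 1 higher at an adjusted p under 0.05, where 2.08% of its 14903 genes were lower and 3.96% higher. The log2 fold change in the authors' deposited table was −0.39 for Hmgcs1 (adjusted p = 0.010), −0.50 for Sc4mol (0.014), −0.61 for Hsd17b7 (0.029), 0.25 for Ebp (0.047) and −0.20 for Cyp51 (0.065).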

How the data were processed

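Poly(A) RNA of mouse islets was sequenced in 6 libraries, 3 per group, extracted with Trizol and prepared with an Illumina TruSeq kit, per the labels' protocols. GRCm38 and mm10 are the builds, and limma, kallisto and bcl2fastq the tools, listed in the submitters' processing notes. Their versions and roles, and the strand used, were not stated. The authors deposited whole-number counts per gene symbol, so none was rounded here. Kallisto gives estimated counts, and how whole numbers were obtained was not stated. They also deposited a table with a log2 fold change and average log2 expression, p-values, and scores (a moderated statistic and a log odds) with limma's column names, per the file headers. The direction is not stated there, and 97.7% of genes had the same sign as OIO over control.

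The test of counts was that of edgeR 4.0.16, run in R 4.3.3 (filterByExpr with a minimum count of 10, trimmed mean of M-values, robust quasi-likelihood with group as the only term, 4 residual degrees of freedom). The Benjamini-Hochberg adjustment ran over 14903 genes, with a threshold of 0.05. CPM are on the scaled library sizes. Each SE was derived from the fold change and the F statistic (size of the log2 value over root F). Averages over genes used log2 CPM with a prior count of 2. An exact 2-sided permutation test of 3 against 3 libraries cannot go below 0.1, so none was run. The test was checked on simulated counts. Alternatives were DESeq2 1.42.0, limma voom 3.58.1, other scalings, no count filter and leaving out each library. Replicates within a group differed by more than counting noise (chi-square per degree of freedom 13.6 to 15.4 between OIO libraries and 28.2 to 54.5 between control libraries).

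Members and lists were chosen with earlier results of these data known. Full values were given for members past the threshold, for Srebf2, Insig1, Hmgcs1, Sqle, Abca1, Abcg1 and Apoe, for the 6 members not past it with the largest log2 fold change in size (Insig1 among them), and for the 6 further sterol genes of lowest p, with Nsdhl, Nr1h2, Lpl, Abca5 and Pltp added after their values were seen. Marker lists covered beta, alpha, delta and PP, macrophage, T and B, endothelial, stromal, glial, acinar and ductal cells. Coordinates came from GENCODE M21 on GRCm38, and promoters from RefSeq. One further marker result is not reported here.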

Additional observations from a re-analysis of the deposited data

How the results depend on the processing

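Hmgcs1 and Sc4mol passed, and kept their direction, under all 6 alternatives of scaling, filter and tool and in all 6 fits without 1 library. Hsd17b7 passed under the same 6 alternatives. The number of lower synthesis genes was 4. It was 3 with RLE scaling, upper quartile scaling and no count filter, where 2.48%, 2.64% and 2.27% of all genes were lower. It was also 3 in DESeq2 and limma voom, where 3.5% and 2.32% were. With library size alone as the scaling it was 5, where 7.47% of all genes were lower, and it was 2 to 3 when a library was left out. The number of higher synthesis genes was 1. It stayed 1 with RLE scaling, upper quartile scaling and no count filter, where 4.65%, 4.65% and 3.63% of all genes were higher. It was 0 with library size alone and 0 to 1 when a library was left out. With library size alone, 1 gene of SREBP2 control and 7 of the further sterol genes were lower, and DESeq2 gave 3 of the latter, where 3.5% of all genes were lower. Leaving out a library gave 0 lower and 1 to 2 higher further genes, where 0.743% to 2.02% of all genes were lower and 2.23% to 3.7% higher. Averages moved to −0.16 for synthesis and −0.14 for LXR and efflux genes with library size alone. With medians over members they were −0.03 for synthesis and 0.06 for synthesis minus efflux. Signs turned only in members near 0 that were never called. With library size alone these were Mvk (0.00), Lss (−0.03), Sc5d (−0.01), Scap (−0.05), Npc2 (−0.04), Soat1 (−0.04) and Abcg1 (−0.01), and Acat2 turned in DESeq2 (0.00) and limma voom (0.02). When a library was left out, the values of these members and of Abca1 ranged from −0.09 to 0.08 for Acat2, −0.02 to 0.06 for Lss, −0.02 to 0.07 for Scap, −0.02 to 0.09 for Npc2, −0.02 to 0.09 for Soat1, −0.01 to 0.13 for Abca1 and −0.05 to 0.15 for Abcg1. The cause was not tested. Members of low count, such as Hsd17b7 and Idi1, are the least precise. No paired analysis was possible because the labels give the groups no shared replicate numbers.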

Other observations

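Outside the sterol genes, Slc2a2, the beta cell glucose transporter, was lower in OIO islets, at −0.39 on the log2 fold change scale (SE 0.10, adjusted p = 0.044 in edgeR). Of the other beta cell markers, Ins1 at 0.28 (SE 0.09, adjusted p = 0.078 in edgeR) and Ucn3 at 0.26 (SE 0.07, adjusted p = 0.053 in edgeR) lay above every control library and did not pass. Ins2 was at 0.19, Nkx6-1 at 0.02, Pdx1 at −0.08 and Mafa at −0.14, with overlapping groups. The markers of alpha cells summed to 79700 CPM in control replicate 2, against 43700 to 61900 CPM in the other libraries. The T and B cell markers summed to 31.9, 17.6 and 22.9 CPM in OIO replicates 2 and 3 and control replicate 3, against 5.08 to 8.02 CPM in the other libraries. The delta and PP markers summed to 5920 to 7140 CPM in OIO and 7590 to 8260 CPM in control libraries. Of these, Ppy averaged 3030 ± 952 and 4610 ± 117 CPM (adjusted p = 0.22 in edgeR), and the groups overlapped in Sst and Hhex. The ductal markers summed to 132 to 241 CPM in OIO and 99.6 to 112 CPM in control libraries. Most of that sum was Spp1, with 233, 128 and 140 CPM in OIO and 95.6, 107 and 102 CPM in control libraries (adjusted p = 0.19 in edgeR). The other ductal markers, Krt19, Sox9 and Cftr, had overlapping groups. The glial markers summed to 17.2 to 24.1 and 22.1 to 27.9 CPM, and the endothelial markers to 624 to 721 and 659 to 665 CPM, in OIO and control libraries.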
